A study of Schizosaccharomyces pombe with 4 samples.

Results

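In the fission yeast Schizosaccharomyces pombe, 37 of the 5134 annotated protein-coding genes carried antisense RNA in wild type (WT) and had less of it in spt6-1. They were selected on the measured antisense levels themselves. A gene entered the set if its antisense RPKM was at least 2 in both WT libraries, if the mean of the spt6-1 libraries was below 0.7 times the WT mean, and if its antisense RPKM did not exceed its sense RPKM in both WT libraries. RPKM is a read count per kilobase of a feature, set relative to the size of its library. Of 1283 coding genes at 2 antisense RPKM or more in both WT libraries, 396 had more antisense than sense RNA in both and were set aside, 850 had a ratio of 0.7 or more and 37 remained. The choice used the same contrast that is described here, so the antisense differences are given as values with no test.

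Strand-specific RNA-seq was available for 4 libraries, 2 from WT and 2 from spt6-1, a mutant allele of spt6. Both strains were prototrophic, grew at 30 °C in yeast extract with supplements (YES) and spent 2 h at 37 °C before RNA was taken, so the WT libraries carry the same heat shift. Poly(A)+ RNA was selected, fragmented to about 200 nucleotides and ligated to adaptors in a way that keeps the strand, and libraries were amplified over 15 PCR cycles. Nothing in the labels places the replicates in separate cultures, so the spread between them may be technical.

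Spt6 is a histone chaperone and elongation factor that travels with RNA polymerase II and helps to restore nucleosomes behind it. Where it fails, cryptic start sites inside genes open and antisense RNA accumulates. Antisense RNA of a coding gene can also come from an annotated neighbour: in the compact genome of fission yeast, convergent genes often overlap, and the transcript of one is then antisense to the other. Genes with less antisense RNA in the mutant run against the general direction of this contrast.

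The set stood against a genome-wide rise. The median coding gene had 0.496 and 0.462 antisense RPKM in the WT libraries and 3.97 and 3.43 in the spt6-1 libraries, whereas the median of the 37 genes was 6.90 and 6.69 in WT against 4.22 and 3.71 in spt6-1. In bulk RNA, fewer cells with a transcript and less transcript per cell cannot be told apart. By limma on log2(RPKM + 0.5) with Benjamini-Hochberg adjustment, 81.9% of 4728 coding genes were called higher in antisense and 1.65% lower. Of the 37 genes, all of which passed the filter on low values, 31 were called lower, a count that the selection largely fixes and from which nothing is read. Both spt6-1 libraries lay above both WT libraries in antisense for 87.1% of the coding genes tested and below them for 3.83%. In the set they lay below for 35 genes, again as the rule favours. The exceptions were SPAC11G7.05c and mis13. The median log2 change was -0.71 for the set, with a range from -1.78 to -0.49, against 1.58 over all coding genes tested.

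**Figure D1:**
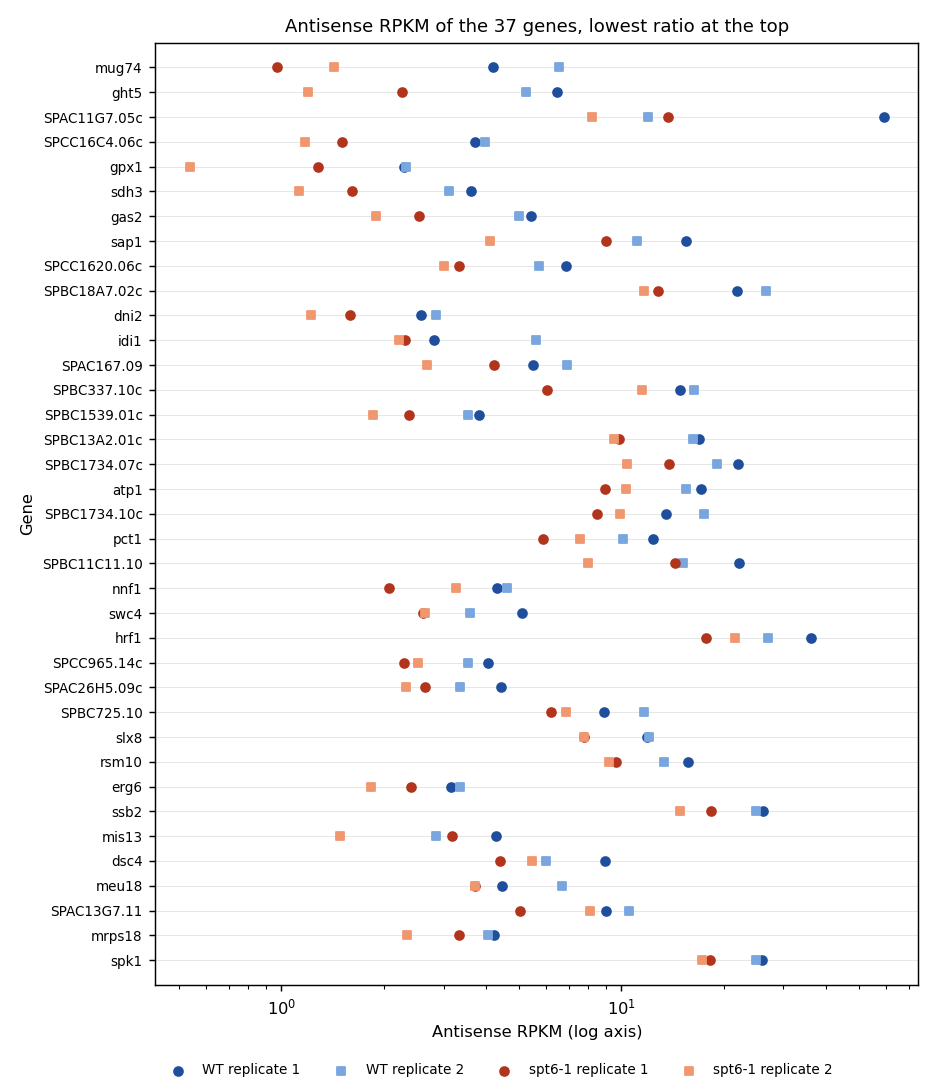
Antisense RPKM (log axis) of each of the 37 genes in the 4 libraries, ordered by the ratio of the spt6-1 mean to the WT mean, with blue for WT and red for spt6-1, circles for replicate 1 and squares for replicate 2. In 35 rows both red points lie left of both blue points, and SPAC11G7.05c has 1 blue point far to the right of its other 3 values.

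The depth was 36520471 and 17093322 recovered sense reads in WT against 39693042 and 16894607 in spt6-1, with 4716866, 2231131, 5672959 and 2960923 antisense reads. The 37 genes together held 37178, 15409, 15854 and 9207 antisense reads, and gpx1, the lowest, had 62, 30, 27 and 7 in the same order. The spt6 transcript itself had 65.5 and 61.6 sense RPKM in WT against 12.7 and 8.32 in spt6-1. Antisense RPKM of spt6 was 0.0631 and 0.0263 in WT against 50.5 and 25.5 in spt6-1. The labels give no transcript level for the allele, so these values are no firm check of them. The denominator behind the deposited RPKM of spt6-1 replicate 1 was only 70.5% of its recovered sense reads, which raises every RPKM of that library relative to a scaling by those reads. A scaling by sense reads alone was not run. With every library scaled to all recovered reads, sense and antisense together, 68 genes would meet the rule. Leakage of sense reads onto the other strand was small in WT. In 229 coding genes with no annotated opposite gene and at least 200 sense RPKM everywhere, median antisense was 0.00498% and 0.00487% of sense in WT. The spt6-1 medians were 0.145% and 0.130%, where leakage and antisense RNA cannot be told apart. In the set, only gas2, gpx1 and erg6 had antisense below 1% of sense in a WT library.

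An annotated transcript on the opposite strand overlapped 33 of the 37 genes. It was a coding gene in 29 cases, a non-coding RNA alone in 4 and absent in 4, namely ght5, sdh3, dni2 and SPAC26H5.09c. By the opposite row covering most of each gene, 15 pairs were tail to tail, 4 were head to head, 8 of the genes lay inside the opposite row and 6 held the opposite row inside them. Of the 850 genes whose antisense ratio was 0.7 or more, 11.1% had no opposite row and 42% were tail to tail, close to 10.8% and 40.5% in the set. An opposite coding gene was present for 68.4% of the 850 against 78.4% in the set. A non-coding RNA alone was present for 20.6% against 10.8%, which rests on 4 genes. The genes were spread over the chromosomes, with 12 on I, 18 on II and 7 on III.

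The opposite transcripts were mostly lower in spt6-1 too. Counted on their own strand, 28 of the 38 opposite rows had both spt6-1 values below both WT values, 3 had both above and 7 overlapped, while over all coding genes tested the shares were 30.7% below and 33% above. In the limma fit of sense RNA, 16 of 37 opposite rows tested were called lower and 1 higher, where the shares over all 6547 rows were 6.67% lower and 21.8% higher. The opposite row covering most of the gene had a ratio under 0.7 for 25 of the 33 genes, against 48 of 756 among the other genes, or 75.8% against 6.35%. Reads in an overlap are counted in both rows, as sense of one and antisense of the other, so these values are not independent of the rule and are not tested.

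**Figure D2:**
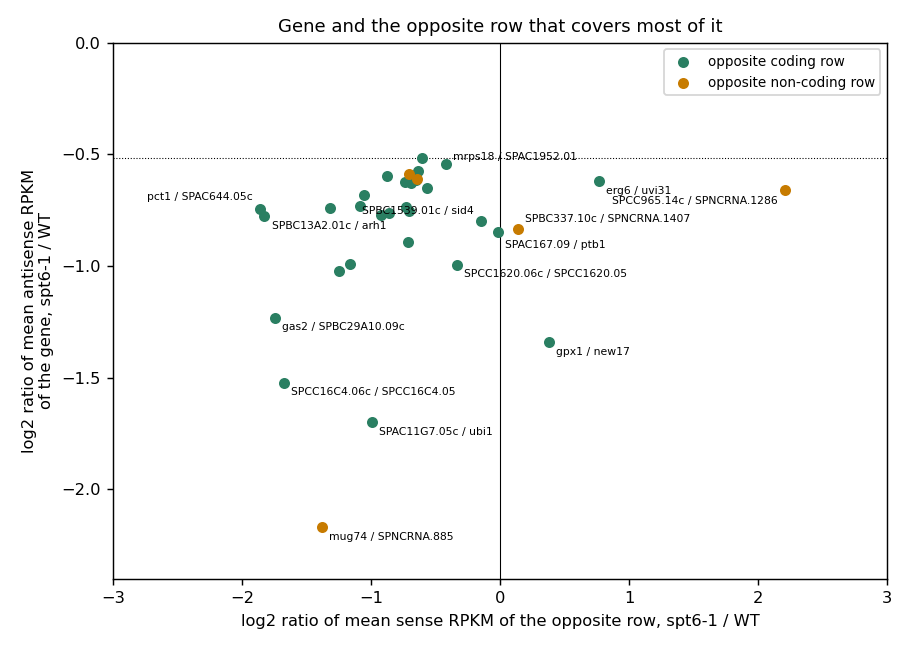
Log2 ratio of mean antisense RPKM of 33 genes (vertical axis) against log2 ratio of mean sense RPKM of the opposite row that covers most of each (horizontal axis), spt6-1 over WT, green for coding and orange for non-coding opposite rows, with the selection limit of 0.7 dotted. Most points lie left of 0, and gpx1, erg6, SPBC337.10c and SPCC965.14c lie right of it.

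The size of the antisense level was compared with what the opposite transcript would give if its reads were spread evenly along its exons. Where a gene had several opposite rows, the row giving the highest value in each library was used. Reads in the overlap enter both measures. Where the opposite row lies inside the gene, even coverage recounts the same reads, so a ratio near 1 there is no independent agreement. Measured antisense was a median 1.01 times this even-coverage value in WT and 1.07 times in spt6-1. It was within 2-fold in 24 of the 33 genes in WT, in 21 in spt6-1 and in 19 in both. The other genes with an opposite row behaved alike, with medians of 1.03 and 1.10. The extremes of the set in WT were 0.211 for swc4 and 16.4 for SPBC11C11.10, where even coverage rests on 1 base of rpl502.

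**Figure D3:**
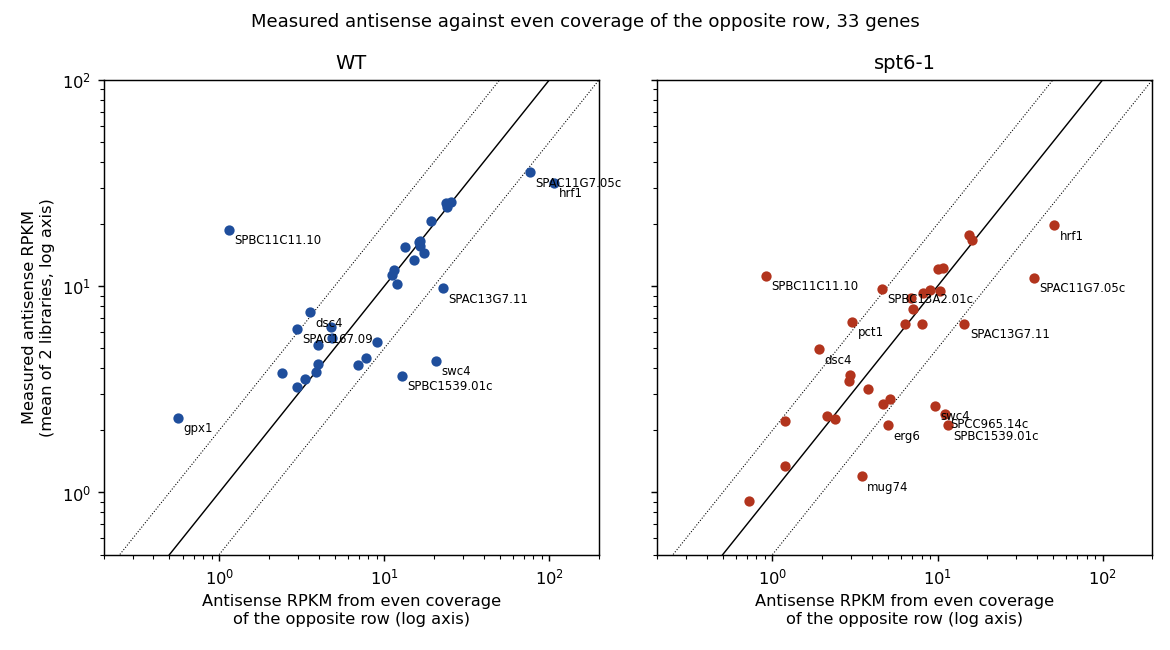
Measured antisense RPKM (mean of 2 libraries) against the antisense RPKM expected from even coverage of the opposite row, on log axes, for 33 genes in WT (left) and spt6-1 (right). The solid line marks equality and the dotted lines 2-fold, within which lie 24 genes in WT and 21 in spt6-1.

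The annotation divides the overlaps by which transcript is the long one. In 10 genes at least 95% of the overlap lay in the gene's own 3′ untranslated region (UTR), so that the neighbour overlapped the tail and little else. In 8 genes the opposite coding gene overlapped with its 3′ UTR alone, and in all of these but gpx1 it ran back across coding sequence of the gene. In 14 genes the overlap covered the whole coding sequence. Among the 850 other genes the shares were 22.5%, 27.7% of opposite coding rows and 39.3%, against 30.3%, 28.6% of 28 opposite coding rows and 42.4% in the set. The median 3′ UTR was 307 bases in the set, 305 in the other genes and 244 over all coding genes.

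The clearest cases of a neighbour within a long tail were SPBC13A2.01c, pct1, SPCC16C4.06c, SPBC18A7.02c and atp1. RefSeq also places opposite non-coding genes that are no rows here over 59.5% of pct1, 40% of SPBC13A2.01c and 40.2% of SPBC18A7.02c. SPBC13A2.01c, named cbc2 in RefSeq and annotated as a subunit of the nuclear cap-binding complex, lies on chromosome II from 3397894 to 3400193 on the minus strand, and its 3′ UTR of 1442 bases holds 1298 bases of arh1, which encodes a mitochondrial ferredoxin reductase. Its antisense values were 16.9 and 16.3 RPKM in WT against 9.83 and 9.54 in spt6-1, a 1.71-fold lower mean. Sense RNA of arh1 was 30.2 and 29.1 RPKM in WT against 8.60 and 8.07 in spt6-1, 3.55-fold lower. The groups were well apart on both measures. Even coverage by arh1 would give 16.7 and 16.1 antisense RPKM in WT, close to the measured values, but 4.77 and 4.48 in spt6-1, where measured antisense was 2.10 times higher.

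The gene pct1 encodes the RNA triphosphatase that starts cap synthesis, and SPAC644.05c (dut1, a dUTPase) lies whole within its 3′ UTR. Antisense of pct1 was 12.4 and 10.1 RPKM in WT against 5.88 and 7.58 in spt6-1. The dUTPase gene had 46.1 and 37.5 sense RPKM in WT against 6.19 and 16.7 in spt6-1. Here too the antisense mean was 1.02 times even coverage in WT and 2.22 times in spt6-1, so the antisense difference (1.67-fold) was smaller than that of the opposite gene (3.65-fold), whose spt6-1 libraries were far apart. SPCC16C4.06c (pus3, a tRNA pseudouridine synthase gene) holds SPCC16C4.05 (pop23, an RNase P/MRP subunit gene) in its 3′ UTR. Its antisense values were 3.71 and 3.98 RPKM in WT against 1.505 and 1.17 in spt6-1, and pop23 had 15.2, 16.4, 5.45 and 4.42 sense RPKM. Antisense was 1.00 times even coverage in WT and 1.12 times in spt6-1, values that share the reads of pop23.

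SPBC18A7.02c, which encodes a protein with predicted membrane spans, had 21.9 and 26.6 antisense RPKM in WT against 12.8 and 11.6 in spt6-1, at 1.01 and 1.14 times even coverage by the dipeptidase gene SPBC18A7.01 (xpa1). In WT replicate 2 its antisense was 108% of its sense RNA. In atp1, the gene of the alpha subunit of the mitochondrial ATP synthase, the annotated locus spans 5233 bases and contains the dipeptidyl peptidase gene SPAC14C4.15c (dpp1) in its tail. Antisense of atp1 was 17.2 and 15.5 RPKM in WT against 8.94 and 10.3 in spt6-1, and dpp1 had 33.3, 30.0, 15.9 and 19.0 sense RPKM. The sense RNA of atp1 was lower as well, at 129.6 and 124 RPKM in WT against 66.6 and 59.7 in spt6-1, so antisense as a share of sense was 13.2% and 12.4% in WT against 13.4% and 17.3% in spt6-1. Both strands of the atp1 locus thus had lower levels.

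**Figure D4:**
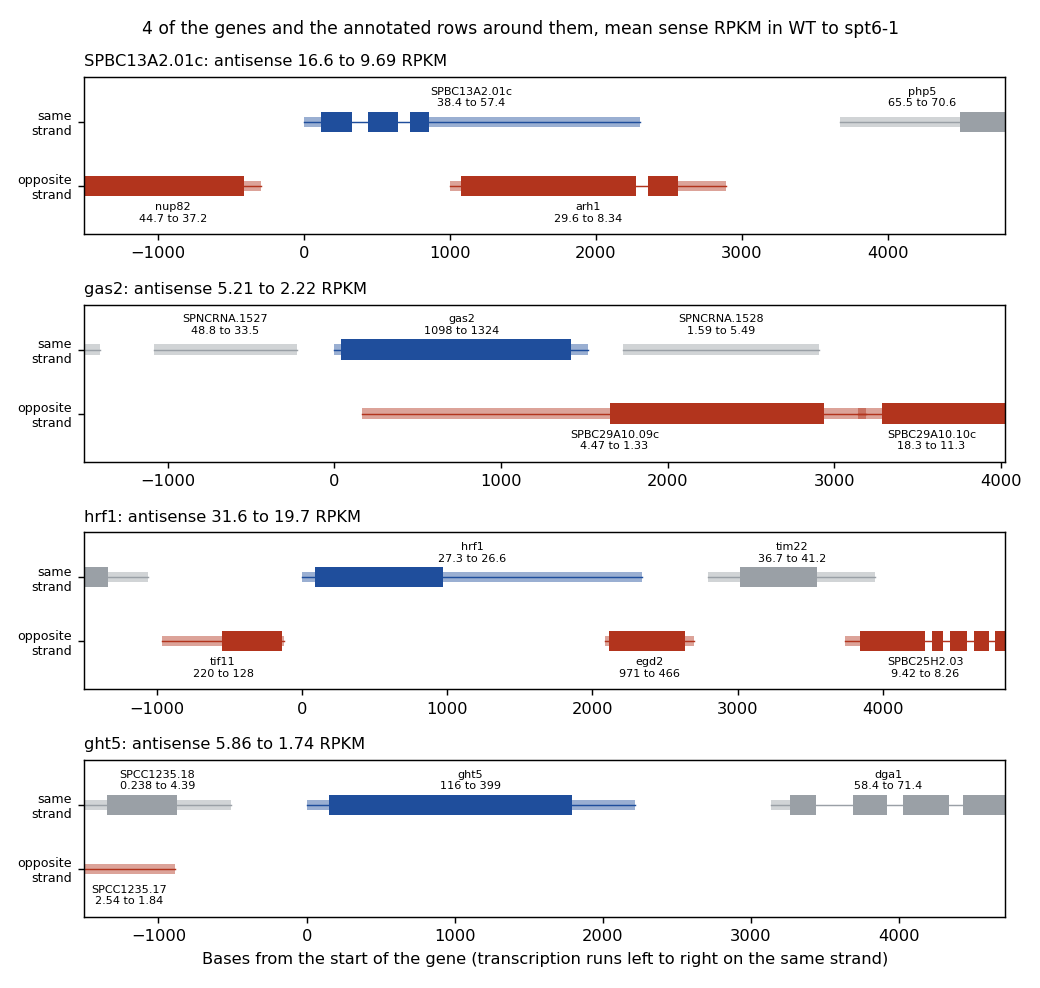
Maps to scale of SPBC13A2.01c, gas2, hrf1 and ght5 (blue) with other annotated rows on the same strand (grey) and the opposite strand (red), thick boxes for coding sequence and thin pale boxes for untranslated or non-coding exons, against bases from the start of the gene. Labels give mean sense RPKM in WT and spt6-1; arh1 lies in the tail of SPBC13A2.01c, the tail of SPBC29A10.09c crosses gas2, egd2 meets only the end of hrf1, and no row opposes ght5.

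In hrf1 and SPAC11G7.05c the only opposite row was a highly expressed neighbour that touched the end of the gene. RefSeq also places opposite non-coding genes there that are no rows here. SPNCRNA.3775 lies over 83.3% of SPAC11G7.05c, and SPNCRNA.6046 and SPNCRNA.6047 lie over 20.4% and 9.09% of hrf1. Antisense of hrf1, a gene of COPII-coated vesicles, was 36.1 and 27.0 RPKM in WT against 17.8 and 21.6 in spt6-1, where egd2, which encodes a subunit of the nascent polypeptide-associated complex, had 1135 and 807 sense RPKM in WT against 436 and 496 in spt6-1. The overlap covered 10.9% of hrf1, and measured antisense was 0.298 times even coverage in WT and 0.387 times in spt6-1. SPAC11G7.05c (mct1, a mitochondrial malonyltransferase gene) faces ubi1, which encodes ubiquitin fused to ribosomal protein L40, across 193 bases. Its antisense values were 59.2 and 12.02 RPKM in WT against 13.8 and 8.19 in spt6-1, so the groups overlapped and the WT libraries differed 4.92-fold. Without either WT replicate it no longer met the rule. Sense RNA of ubi1 was 844 and 675 RPKM in WT against 337 and 425 in spt6-1.

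The tail of a neighbour ran back across the coding sequence in gas2, sap1, nnf1, swc4, SPAC13G7.11, SPBC1539.01c and erg6, and reached only the 3′ UTR of gpx1. The gene gas2, on chromosome II from 2554009 to 2555531 on the plus strand, encodes a glucan-remodelling enzyme of the cell wall. The 3′ UTR of SPBC29A10.09c (tri1, a CAF1 family ribonuclease gene) covers 90.6% of its coding sequence. Antisense of gas2 was 5.41 and 5.0 RPKM in WT against 2.53 and 1.90 in spt6-1, and tri1 had 4.22, 4.73, 1.51 and 1.15 sense RPKM. Both measures separated the groups. The sense RNA of gas2, at 806, 1390, 1586 and 1062 RPKM, was far above its antisense and overlapped between the groups. With ght5, gas2 was still selected under all 14 alternative rules, scalings and omitted libraries, which reuse the values of the rule. Looser limits could drop no gene. At a WT minimum of 5 RPKM, gas2 barely passed, with 5.0003 antisense RPKM in WT replicate 2.

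The essential DNA-binding protein gene sap1 lies entirely inside SPCC1672.01, a histidinol-phosphatase gene with a 3′ UTR of 3990 bases. Antisense of sap1 was 15.5 and 11.1 RPKM in WT against 9.03 and 4.10 in spt6-1. SPCC1672.01 had nearly the same levels on its own strand, at 16.05, 14.3, 7.82 and 4.91 RPKM. The libraries kept 1 order in both rows. The kinetochore gene nnf1 lies inside mxr1, a methionine sulfoxide reductase gene, and had antisense values of 4.32, 4.60, 2.08 and 3.27 RPKM. The chromatin remodelling gene swc4 had 5.10, 3.60, 2.60 and 2.65, much less than the 21.8, 19.4, 10.5 and 8.92 that even coverage by cpd1, a tRNA methyltransferase gene, would give.

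Other pairs overlapped over long stretches. The replication protein A subunit gene ssb2 is covered over 96.7% by sec1, a gene of vesicle fusion. Its antisense values were 26.1 and 24.9 RPKM in WT against 18.4 and 14.9 in spt6-1, 1.00 and 1.03 times even coverage. The ubiquitin ligase gene slx8 faces apn2, which encodes an endonuclease of base excision repair. Antisense of slx8 was 11.9 and 12.1 RPKM in WT against 7.75 and 7.79 in spt6-1, and apn2 had 12.8, 12.8, 7.95 and 7.88. The replicates of this pair lay close together. The sense RNA of slx8 was higher in spt6-1, at 12.4, 13.1, 21.3 and 22.03 RPKM, so antisense was 96.6% and 92.3% of sense in WT and 36.4% and 35.3% in spt6-1.

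The mitochondrial ribosomal protein gene rsm10 and the splicing factor gene cwf3 overlap tail to tail over 2111 bases. Antisense of rsm10 was 15.7, 13.3, 9.64 and 9.19 RPKM, with 25.2, 20.3, 14.8 and 12.3 sense RPKM of cwf3. The pheromone pathway kinase gene spk1, at a ratio of 0.699 the gene nearest the limit, had 25.9 and 24.9 antisense RPKM in WT against 18.2 and 17.3 in spt6-1. Its opposite gene ups1 (hem4, of haem synthesis) had 34.2, 32.4, 23.0 and 20.7. SPBC1734.07c (trs8502, a TRAPP complex subunit gene) had 22.1, 19.2, 13.8 and 10.4 antisense RPKM opposite the DNA repair gene rhp18, which had 37.0, 32.9, 20.7 and 16.1 sense RPKM. In each of these pairs the gene's antisense and the sense RNA of the opposite gene, which lie on the same strand, separated the groups. SPCC1620.06c, a phosphoribosyl pyrophosphate synthetase gene, had 6.90, 5.72, 3.33 and 3.01 antisense RPKM, while the gene around it, SPCC1620.05 (bet4), differed only 1.26-fold. SPBC725.10 (tsp0) had 8.88, 11.7, 6.22 and 6.89 antisense RPKM and faces php2, a subunit gene of the CCAAT-binding complex, which had 14.6, 17.9, 10.6 and 11.3 sense RPKM.

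In 4 genes the opposite row was a non-coding RNA only. The gene mug74 had the lowest ratio of the set, 0.222. Its antisense was 4.21 and 6.56 RPKM in WT against 0.970 and 1.43 in spt6-1, and SPNCRNA.885, which spans the whole gene, had 8.83, 9.21, 3.74 and 3.18 sense RPKM. Antisense was 49.2% and 91.2% of sense RNA in WT against 6.52% and 14.3% in spt6-1. In meu18, antisense of 4.47, 6.69, 3.71 and 3.71 RPKM stood beside 4.22, 6.16, 3.26 and 3.09 for SPNCRNA.1417. In the kinetochore gene mis13 the groups overlapped on both measures, at 4.27, 2.86, 3.19 and 1.49 antisense RPKM and 4.68, 2.95, 3.37 and 1.51 for SPNCRNA.1416.

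SPCC965.14c, a cytosine deaminase gene, went against its opposite row. Its antisense values were 4.06 and 3.55 RPKM in WT against 2.30 and 2.52 in spt6-1, yet SPNCRNA.1286, which covers it whole, had 2.74 and 2.04 RPKM in WT against 10.6 and 11.5 in spt6-1. Measured antisense was 1.59 times even coverage in WT and 0.218 times in spt6-1. The additional reads of SPNCRNA.1286 in spt6-1 thus lay mostly outside the gene. The sense RNA of SPCC965.14c was also lower, at 23.9, 20.8, 4.63 and 8.20 RPKM.

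Other genes also differed from their opposite rows. Antisense of erg6, a sterol methyltransferase gene, was 3.16, 3.36, 2.40 and 1.83 RPKM, while uvi31, whose tail covers it, had 2.82, 3.10, 5.46 and 4.61. The glutathione peroxidase gene gpx1 had 2.30, 2.32, 1.28 and 0.539 antisense RPKM, and new17, which overlaps it by 25 bases, had 16.1, 17.5, 23.4 and 20.2. Both opposite rows were higher in spt6-1 without overlap between the groups. Like pct1, nnf1, swc4, slx8, rsm10, mis13 and erg6 above, the following genes were chosen after their values were seen. SPAC167.09 (pga1) had 5.48, 6.94, 4.22 and 2.69 antisense RPKM, although its opposite genes ptb1 and ire1 had ratios of 0.985 and 0.939. RefSeq also places SPNCRNA.2690, which is no row here and was not measured, over 28.0% of SPAC167.09, and gives no overlap with ptb1. SPBC1539.01c (mrpl15) lies inside sid4, whose ratio was 0.902, and its antisense was 0.287 times even coverage in WT. SPBC337.10c (dre2) had 14.9, 16.4, 6.03 and 11.5 antisense RPKM with 2 opposite rows, SPNCRNA.1407 at a ratio of 1.10 and the ergosterol gene erg28 at 0.423. In SPBC1734.10c (ipa1), which lies inside SPBC1734.09 (yea4), antisense was 13.5, 17.5, 8.50 and 9.92 RPKM and the opposite gene had 11.6, 15.1, 7.69 and 8.70. In yea4, 186 bases are near-identical to sequence elsewhere in the genome, so its counts are uncertain. The ubiquitin ligase subunit gene dsc4 had 8.94, 6.01, 4.41 and 5.47 antisense RPKM, and new13 in its tail had 21.5, 13.0, 8.69 and 10.1 sense RPKM. In dsc4 and SPBC1734.10c, antisense and the sense RNA of the opposite gene, which lie on the same strand, were both lower with no overlap between the groups, and the genes' own sense RNA was higher with no overlap.

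The 4 genes with no opposite row in the table had low to moderate antisense levels. The glucose transporter gene ght5, on chromosome III from 212160 to 214376 on the plus strand, had 6.48 and 5.24 antisense RPKM in WT against 2.27 and 1.20 in spt6-1. Its sense RNA was 115 and 116 RPKM in WT against 384 and 415 in spt6-1, 3.45 times higher. The strands of ght5 thus differed in opposite directions, with no overlap between the groups on either, and antisense was 5.64% and 4.50% of sense in WT against 0.592% and 0.289% in spt6-1. The succinate dehydrogenase subunit gene sdh3 had 3.61, 3.11, 1.62 and 1.13 antisense RPKM, and dni2, a cell fusion gene, had 2.57, 2.85, 1.59 and 1.22. The converging gene SPBC4.02c ends 151 bases from dni2 and had 55.0, 49.0, 33.3 and 44.8 sense RPKM. SPAC26H5.09c had 4.43, 3.36, 2.64 and 2.33 antisense RPKM. RefSeq places the non-coding gene SPNCRNA.3851, which is no row of the table, over 96.2% of it, and 13 of the 37 genes have such an opposite RefSeq gene outside the table.

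SPBC11C11.10 (pus4, a tRNA pseudouridine synthase gene) overlaps irc3 (SPBC11C11.11c) by only 2 bases and rpl502 by 1 base. Even coverage, set here by the highly expressed rpl502, gives only 1.08, 1.20, 1.03 and 0.802 antisense RPKM. Measured antisense of SPBC11C11.10 was 22.2, 15.2, 14.4 and 8.003 RPKM, and irc3 had 14.4, 8.43, 5.77 and 3.40 sense RPKM. The 4 libraries fell in the same order in both rows. In idi1, an isoprenoid synthesis gene that overlaps the 5′ end of sda1 by 64 bases, antisense was 2.81, 5.60, 2.30 and 2.22 RPKM, with WT replicate 1 close to the spt6-1 values. RefSeq also places SPNCRNA.4703, which is no row here, over 72.2% of idi1. The genes mrps18 and SPAC13G7.11 (mba1), both of mitochondrial translation or assembly, lay just inside the limit with ratios of 0.686 and 0.672. Antisense of mrps18 was 4.21, 4.04, 3.32 and 2.34 RPKM and that of SPAC13G7.11 was 9.0, 10.5, 5.04 and 8.08, opposite SPAC1952.01 (gab1) and SPAC13G7.12c (eki1, a choline kinase gene), which had ratios of 0.746 and 0.641. In RefSeq the only gene opposite mrps18 is SPNCRNA.4235, which is no row here and covers 57.0% of it. Just outside were SPCC1450.15 at 0.707, spt16 at 0.710 and SPBC1347.08c at 0.710.

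Sense RNA of the selected genes was more often higher than lower in spt6-1. Both spt6-1 values were above both WT values in 18 genes, below in 7 and overlapping in 12, against 33% above and 30.7% below over all coding genes tested and 30.1% and 32.5% in the 850 other genes, with a median ratio of 1.17 against 1.01 in the 850 other genes. In limma's sense fit 5 of the 37 were called higher (nnf1, SPBC725.10, slx8, gpx1 and ght5) and 2 lower (atp1 and SPCC965.14c), where the shares over 5060 coding genes were 12.1% higher and 8.2% lower. These shares are near those of the set, so the counts say nothing particular about these genes. Sense RNA of SPBC725.10 was 165 and 274 RPKM in WT against 479.8 and 526 in spt6-1, and that of gpx1 was 298 and 297 in WT against 728 and 565 in spt6-1. Of the named genes with lower sense RNA, dni2 had 2.42, 3.04, 1.43 and 1.32 RPKM and was not called.

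**Figure D5:**
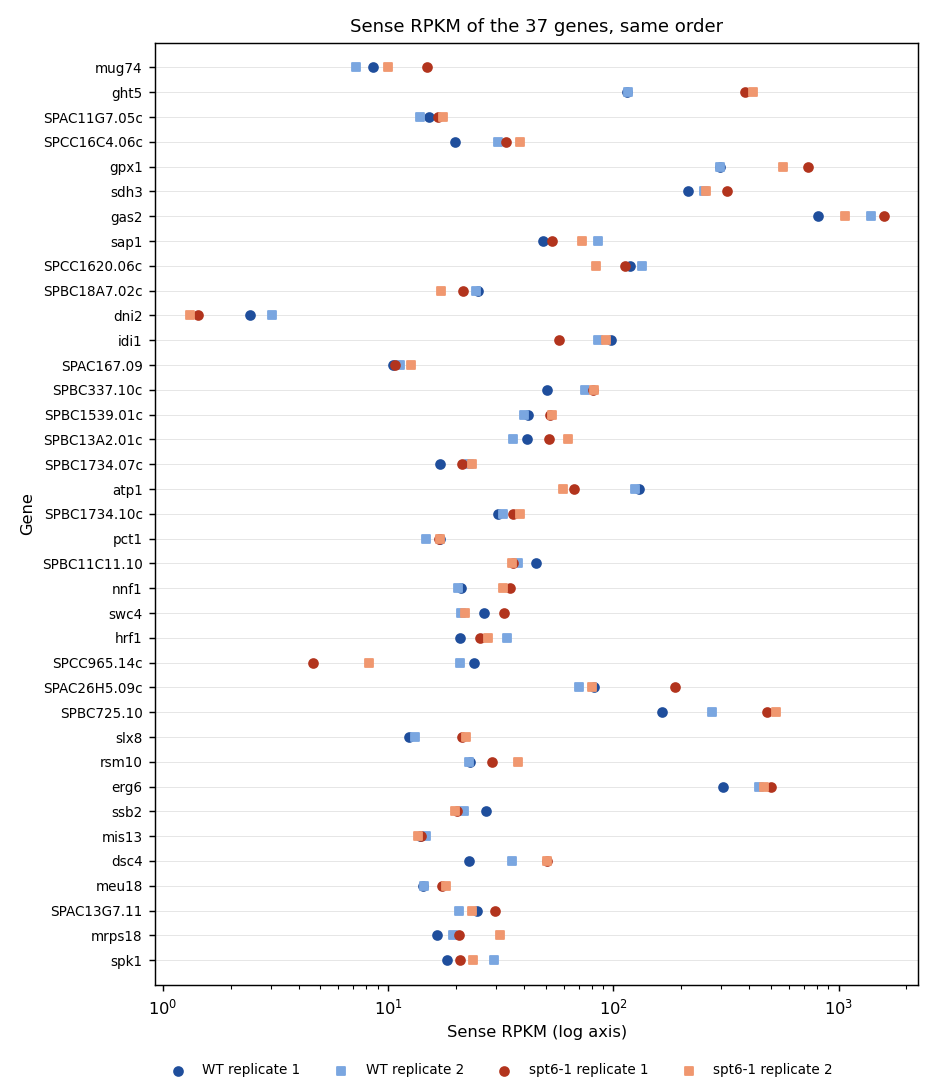
Sense RPKM (log axis) of the 37 genes in the 4 libraries, in the order of their antisense ratio, with blue for WT and red for spt6-1, circles for replicate 1 and squares for replicate 2. Both red points lie right of both blue points in 18 rows, with ght5 among them, and left in 7, with SPCC965.14c and atp1 among them.

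Promoter sequence is shown for the opposite coding genes that were lower in spt6-1, since by the annotation their transcripts run antisense to the selected genes. Of 24 such rows with a ratio under 0.7, only 4 had 250 bases before the start that were clear of every other row and RefSeq gene: cpd1 (chrI:1993318-1993567, plus strand, antisense to swc4), ups1 (chrI:2998499-2998748, plus strand, antisense to spk1), ubi1 (chrI:3968682-3968931, plus strand, antisense to SPAC11G7.05c) and cwf3 (chrII:3873759-3874008, minus strand, antisense to rsm10). The windows were read from the RefSeq assembly ASM294v3 at the table's coordinates and run 5′ to 3′ on the strand of the gene, ending at the base before the annotated start. Capitals mark the only match to the searched motifs, TATAAA on the other strand at -31 in cwf3.
cpd1: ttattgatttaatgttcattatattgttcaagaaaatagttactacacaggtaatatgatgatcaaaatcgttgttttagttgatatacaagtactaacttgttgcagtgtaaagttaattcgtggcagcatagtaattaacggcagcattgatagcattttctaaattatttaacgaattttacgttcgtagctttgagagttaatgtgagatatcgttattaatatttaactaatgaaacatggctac
ups1: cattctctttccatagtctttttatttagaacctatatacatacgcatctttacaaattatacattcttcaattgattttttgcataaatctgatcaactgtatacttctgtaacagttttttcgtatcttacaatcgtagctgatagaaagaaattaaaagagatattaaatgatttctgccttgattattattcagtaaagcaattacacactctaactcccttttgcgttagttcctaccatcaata
ubi1: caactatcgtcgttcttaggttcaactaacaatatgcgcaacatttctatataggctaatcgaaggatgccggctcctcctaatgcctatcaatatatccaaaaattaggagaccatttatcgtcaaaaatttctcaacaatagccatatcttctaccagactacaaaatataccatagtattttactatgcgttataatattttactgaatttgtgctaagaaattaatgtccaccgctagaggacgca
cwf3: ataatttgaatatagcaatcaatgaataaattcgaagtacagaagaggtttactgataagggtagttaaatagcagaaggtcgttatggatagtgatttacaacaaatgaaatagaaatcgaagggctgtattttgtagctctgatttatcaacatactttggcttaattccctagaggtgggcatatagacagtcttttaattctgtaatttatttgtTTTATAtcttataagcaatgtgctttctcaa
Over 33 opposite coding rows, windows with TATAAA on either strand made up 42.4%, against 45.5% of 5122 coding rows. Counted in the same way, the shares were 18.2% against 35.1% for CCAAT, the box bound by the Php complex, 3.03% against 1.66% for the HomolD box CAGTCACA, 3.03% against 4.57% for TGACGT of Atf1 sites and 0 against 2.38% for ACGCGT of MBF sites. A match is a description of these letters only.

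Genes that act on antisense RNA or chromatin were listed apart. Of 34 such factors 32 were tested, none was among the 37 genes or their opposite rows, and by limma with adjusted p 0 were called higher and 4 lower on the sense strand (clr6, dis3, mtr4 and spt6), with a median log2 change of -0.21. The shares over all coding genes tested were 12.1% higher and 8.2% lower, and spt6 is the mutated gene itself. At an unadjusted p under 0.05 the counts were 1 higher and 6 lower, and limma's voom on recovered reads called 0 and 4. None of 12 markers of meiotic and spore cells was in the set, and all 10 of those tested were called higher, with a median log2 change of 2.21, against the same 12.1% over all coding genes. Of 138 cytosolic ribosomal protein genes, 0 were called higher and 15 lower (1 and 33 at an unadjusted p under 0.05, 1 and 25 with voom), with a median of -0.59, beside 8.2% lower over all coding genes, and rpl502, opposite SPBC11C11.10 by 1 base, was the only one among the opposite rows. The part of these differences in the antisense levels was not tested.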

How the data were processed

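The members and gene lists were chosen with earlier results of these data known. Reads were aligned with TopHat to the build ASM294v2, per the submitters' processing notes; the counter is not given in the sources used here. RPKM, sense and antisense, were computed and deposited by the authors for 7023 rows. The lengths and denominators behind them were recovered from the values: 100% came out as whole reads within 0.01 read, with sense divided by exon length and antisense by locus length. Overlaps of 1 base or more used the table's coordinates. Sequences came from ASM294v3, where 5119 of 5123 coding structures of the table were intact open reading frames.

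Values were taken as log2(RPKM + 0.5) and fitted with limma 3.58.1 in R 4.3.3 (lmFit, eBayes with trend, two-sided, Benjamini-Hochberg, threshold 0.05), for sense in rows at 1 RPKM or more and for antisense in coding rows at 0.5 RPKM or more, each in at least 2 libraries. The fit was also run on simulated reads with the same scatter setting for all rows and no genome-wide shift. The antisense data differ in this, so nothing is read from that run. Copies were searched with BLAST 2.17.0 at 95% identity over 40 bases or more, and no member had one. Tables were joined in Python 3.11.15 with pandas 2.3.3 and numpy 2.4.6. Exact permutation tests of 2 against 2 libraries cannot give a two-sided p below 0.333 and were not used. The genes named by rule were the 12 lowest ratios, the 8 highest WT antisense levels, 3 per overlap class, the 3 largest sense differences each way and the 3 nearest each side of the limit, 25 members in all; other members named were chosen after their values were seen. A deposited list of splice junctions was not used. Alternatives changed the limits, scaling, pseudocount, filter, model and libraries.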

Additional observations from a re-analysis of the deposited data

How the results depend on the processing

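The number of genes meeting the rule depended on its limits and on the scaling. Against 37, it was 8 at a ratio under 0.5, 22 under 0.6, 66 under 0.8 and 22 with a WT minimum of 5 RPKM. It was 13 when each spt6-1 library had to lie below 0.7 times the lower WT library. Scaling to all recovered reads gave 68 and quantile normalization of both strands together 619. In the limma fit, a separate quantile normalization of the antisense values alone moved the median antisense change of coding rows from 1.58 to -0.08. Leaving out 1 library gave 38 to 47 genes, and 16 of the 37 met the rule each time. The cause was not tested. The count of members called lower in antisense, 31, ranged from 21 to 37 over the alternatives run, and 19 of the 31 were still called without WT replicate 1 or without spt6-1 replicate 2. Of 444 antisense log2 changes under alternatives, 0 changed sign, and of 444 sense changes 19 did, none of them called. The alternatives reuse the libraries of the selection, which largely fixes the antisense signs, so nothing is read from that count. Members called higher in sense (5) became 1 under quantile normalization and 2 relative to the median row, with 1 to 3 when 1 library was left out (1 without WT replicate 1 or spt6-1 replicate 1); those called lower (2) became 3 under both of these scalings and without the trend, and 1 to 2 when 1 library was left out. Opposite rows called lower (16) became 25 under quantile normalization and 9 to 13 with 1 library left out (9 without WT replicate 1); those called higher (1) became 2 with voom. Coding rows called higher in antisense (3872) became 1316 under quantile normalization, 1519 relative to the median row and 1671 to 3707 with 1 library left out (1671 and 1748 without spt6-1 replicate 1 or 2), and those called lower (78) became 1494 and 1466 under these scalings. No label pairs the libraries by replicate number; deviations of same-numbered libraries correlated at 0.323 (sense) and 0.202 (antisense), and with a replicate block 37 members were called lower in antisense, 7 higher and 2 lower in sense, and 22 opposite rows lower and 2 higher. Low antisense counts in spt6-1 replicate 2 limit the smallest values.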
